A study of Homo sapiens with 8 samples.

Results

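The miR-200 family of humans has 5 mature miRNAs, hsa-miR-200a-3p, hsa-miR-200b-3p, hsa-miR-429, hsa-miR-200c-3p and hsa-miR-141-3p. They were chosen by name, and all 5 are among the 2006 human miRNAs of the array. Their genes lie in 2 clusters, with hsa-miR-200b-3p, hsa-miR-200a-3p and hsa-miR-429 in band 1p36 and hsa-miR-200c-3p and hsa-miR-141-3p in band 12p13. The question was how the 1p36 and the 12p13 members compare between 2 breast cancer cell lines and under trastuzumab, an antibody against the receptor HER2.

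The study treated BT474 and SKBR3 cells, both HER2+ breast cancer lines, and measured their miRNAs on one-colour arrays. BT474 is labelled ER+, HER2+ and PR+, and SKBR3 is labelled ER-, HER2+ and PR+, although the study's methods list it as negative for PR. In each line 1 group received 6 μg/mL trastuzumab and 1 group received PBS for 144 h, with fresh medium during that time, in 2 replicates labelled biological. The lines grew in different media, and the BT474 medium also held insulin.

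The family is associated with the epithelial state. Its members pair with the messenger RNAs of ZEB1 and ZEB2, repressors of E-cadherin, and lower them, while ZEB1 and ZEB2 in turn repress the genes of both clusters. Through this double-negative loop the family holds cells in an epithelial state, and it is low in many breast cancer cells of mesenchymal type.

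The mature sequences are shown because the clusters do not follow the seed (bases 2 to 8, in capitals), the stretch that pairs with targets. All 5 members were found by name among the RefSeq mature miRNAs (GRCh38.p14), as were 1687 of the 2006 names on the array (84.1%). The first seed is shared by 2 members of the 1p36 cluster and 1 of the 12p13 cluster, and no other human miRNA of the table carries it:
hsa-miR-200b-3p: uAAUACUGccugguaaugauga
hsa-miR-429: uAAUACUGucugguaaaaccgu
hsa-miR-200c-3p: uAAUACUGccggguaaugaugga
The other seed is shared by 1 member of each cluster, and again by no other human miRNA of the table:
hsa-miR-200a-3p: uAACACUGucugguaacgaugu
hsa-miR-141-3p: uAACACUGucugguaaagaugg

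Counted from 1 at the 5′ end, the seeds differ by 1 base, C4U from hsa-miR-200a-3p to hsa-miR-200b-3p. From hsa-miR-200a-3p to hsa-miR-141-3p, its partner by seed in the other cluster, 2 of 22 bases differ (C17A and U22G). From hsa-miR-200b-3p to hsa-miR-200c-3p 2 of 22 compared bases differ (U11G and A22G), and hsa-miR-200c-3p has 1 base more. Each seed is thus present in both clusters, so that a line that lacks the miRNAs of 1 cluster can still carry both seeds.

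In GRCh38.p14 the 1p36 hairpins MIR200B (chr1:1167104-1167198), MIR200A (chr1:1167863-1167952) and MIR429 (chr1:1169005-1169087) lie on the + strand within 1984 bases. The annotation places them inside the long non-coding RNA gene MIR200BHG. MIR200C (chr12:6963699-6963766) and MIR141 (chr12:6964097-6964191) lie on the + strand within 493 bases, inside the long non-coding RNA gene MIR200CHG. Promoter windows of 300 bases, from 250 before to 50 after the start of each host gene, are shown since the members of a cluster lie in 1 host gene. They were searched for the E-box CACCTG, the motif that ZEB1 and ZEB2 bind, on both strands (CAGGTG on the other), and the matches are in capitals. These are RefSeq sequences of the + strand, chr1:1162627-1162926 for MIR200BHG and chr12:6962995-6963294 for MIR200CHG:
MIR200BHG: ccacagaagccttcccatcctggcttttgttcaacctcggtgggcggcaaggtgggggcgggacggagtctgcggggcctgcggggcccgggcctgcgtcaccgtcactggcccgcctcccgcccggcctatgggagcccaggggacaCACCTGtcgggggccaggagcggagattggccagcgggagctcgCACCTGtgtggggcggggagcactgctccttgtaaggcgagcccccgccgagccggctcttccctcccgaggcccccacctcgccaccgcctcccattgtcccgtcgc
MIR200CHG: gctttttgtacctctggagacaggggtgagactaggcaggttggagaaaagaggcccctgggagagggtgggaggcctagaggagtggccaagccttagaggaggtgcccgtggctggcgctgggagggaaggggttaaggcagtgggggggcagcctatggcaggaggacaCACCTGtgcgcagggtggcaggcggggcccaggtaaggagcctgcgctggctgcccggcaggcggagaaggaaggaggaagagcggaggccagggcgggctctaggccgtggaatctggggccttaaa

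The window of the 1p36 cluster holds 2 matches and that of the 12p13 cluster 1. Of 35116 windows of the same kind, 7231 (20.6%) hold 1 or more and 1227 (3.49%) hold 2 or more. A match shows only that these letters are present.

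The file labelled SKBR3 PBS replicate 1 is a copy of BT474 PBS replicate 1, so that 7 distinct arrays remain, 4 of BT474 and 3 of SKBR3. The copied values were used once, as BT474, and the SKBR3 PBS group is the lone array of replicate 2. The scan was placed with BT474 by its slide column and because it carries the 1p36 miRNAs, which are themselves compared below. A check without the family, added after the data were seen, covered 171 other miRNAs detected on every array, with the median difference taken off. There the scan differed from the other BT474 arrays by a root mean square of 0.22 to 0.58 on the log2 scale and from the SKBR3 arrays by 1.18 to 1.25. On 1 slide, the PBS arrays lie in row 2 and the trastuzumab arrays in row 1, while BT474 lies in columns 1 and 2 and SKBR3 in columns 3 and 4. Treatment and row cannot be told apart, nor can cell line, column and medium. Detected miRNAs ranged from 247 to 256 on the BT474 arrays and from 201 to 218 on the SKBR3 arrays, and 173 were detected on all 7. With so few arrays, every value is of limited precision.

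The family was read against lists of miRNAs that mark cell types. No miRNA of the stromal list (0 of 5, among them hsa-miR-143-3p and hsa-miR-145-5p) and none of the leukocyte list (0 of 4, among them hsa-miR-142-3p and hsa-miR-223-3p) was detected on any of the 7 arrays. Of the endothelial list 1 of 2 was detected, hsa-miR-126-3p, on 3 BT474 arrays with signals of 51.6 to 88.5, and of the erythroid list 1 of 3, hsa-miR-451a, on 1 BT474 array with a signal of 57.3. Of 14 further epithelial and luminal miRNAs, 11 were detected in BT474 and 7 in SKBR3.

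Each member has 2 probes with 15 spots apiece, and the feature extraction software sums them to 1 signal per miRNA, in arbitrary units, and sets it to 0.1 where the miRNA is not detected. Errors beside single arrays are those the software gives. hsa-miR-200a-3p had summed signals of 2191 ± 179 and 2821 ± 231 on the BT474 PBS arrays and of 2643 ± 214 and 3788 ± 304 on the BT474 trastuzumab arrays. hsa-miR-200b-3p had 4413 ± 381 and 5696 ± 494 with PBS and 5027 ± 431 and 6116 ± 526 with trastuzumab. hsa-miR-429 had 1693 ± 123 and 2387 ± 172 with PBS and 1963 ± 142 and 2647 ± 191 with trastuzumab. On the 3 SKBR3 arrays all 3 miRNAs of the 1p36 cluster stood at 0.1, so that the 2 lines did not overlap for any of them. The 1p36 cluster was thus present in BT474 under both treatments and not detected in SKBR3 under either.

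The 12p13 cluster was detected on all 7 arrays. hsa-miR-200c-3p had summed signals of 6425 ± 609 and 8183 ± 775 on the BT474 PBS arrays and of 7749 ± 725 and 9096 ± 860 on the BT474 trastuzumab arrays. In SKBR3 it had 4827 ± 459 on the PBS array and 5503 ± 519 and 4953 ± 469 on the trastuzumab arrays. Before any scaling between arrays, each SKBR3 value of hsa-miR-200c-3p lay below each BT474 value. hsa-miR-141-3p had 15077 ± 1281 and 17015 ± 1410 with PBS and 16354 ± 1373 and 17430 ± 1408 with trastuzumab in BT474. In SKBR3 it had 9310 ± 792 with PBS and 12120 ± 1038 and 7766 ± 673 with trastuzumab. Here too the unscaled SKBR3 values lay below all BT474 values, and the 2 SKBR3 trastuzumab arrays lay on either side of the PBS array. Unscaled, SKBR3 read lower in general, with a median log2 difference of −0.86 over the 307 miRNAs tested. The order of the lines is thus not read as a trait of the family.

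**Figure D1:**
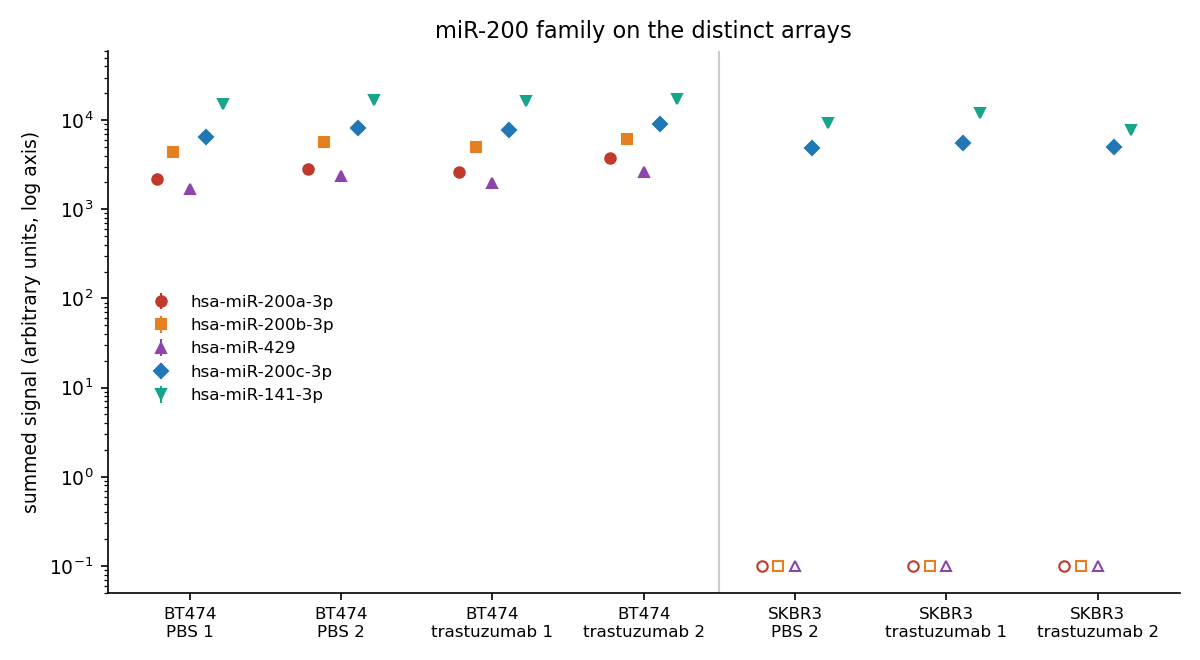
Summed signal (y axis, arbitrary units, log scale) of the 5 members on the 7 distinct arrays (x axis), with error bars from the feature extraction software and open symbols for miRNAs not detected. The 3 miRNAs of the 1p36 cluster lie between 1693 and 6116 on the BT474 arrays and at 0.1 on the SKBR3 arrays, while hsa-miR-200c-3p and hsa-miR-141-3p are detected on all 7, lower in SKBR3 as unscaled, with a direction that turns for hsa-miR-200c-3p under quantile normalization.

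Among the BT474 arrays the members moved alike before scaling. For each of the 5, PBS replicate 1 was the dimmest array, followed by trastuzumab replicate 1, PBS replicate 2 and trastuzumab replicate 2. This order mixes the treatments, and it follows slide column, since replicate 1 of BT474 lies in column 2 and replicate 2 in column 1. After quantile normalization the spread over the 4 BT474 arrays was small for the 4 members without saturated spots, with log2 means of 11.12 ± 0.10 (SD, n = 4) for hsa-miR-200a-3p and 12.03 ± 0.05 for hsa-miR-200b-3p. It was 10.67 ± 0.08 for hsa-miR-429 and 12.59 ± 0.04 for hsa-miR-200c-3p. These values go to ranks, and hsa-miR-200a-3p had the same value on 3 arrays and hsa-miR-200b-3p and hsa-miR-200c-3p on 2. The small spread is thus one of ranks and does not bound that of the signals. No spread is read for hsa-miR-141-3p, whose BT474 signal was saturated and whose unsaturated probe ran from 11960 to 18454.

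The single probes show the same split between the clusters. All 360 spots of the 1p36 members on the BT474 arrays were well above background, against 3 of 270 (1.11%) on the SKBR3 arrays. All 240 spots of the 12p13 members in BT474 and all 180 in SKBR3 were well above background. The spots of a probe sit on the same array and are not replicates of the cells.

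The probes of hsa-miR-200a-3p had mean signals after background subtraction of 2303 to 4231 and of 8031 to 13633 over the BT474 arrays. In SKBR3 they had −11.4 to 47.3 and −33.0 to 12.2. For hsa-miR-200b-3p the probes had 3195 to 4490 and 17616 to 24353 in BT474 and −18.8 to 5.42 and −5.46 to 29.2 in SKBR3. For hsa-miR-429 they had 4531 to 7088 and 3454 to 5338 in BT474, against −3.31 to 11.6 and 0.948 to 36.4 in SKBR3. Every 1p36 probe thus read far above background in BT474 and near 0 in SKBR3. The largest SKBR3 mean of the cluster, 47.3 for a hsa-miR-200a-3p probe on trastuzumab replicate 2, had an SD of 153 over its 15 spots, of which 1 was well above background.

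In the 12p13 cluster both probes of each miRNA read far above background in both lines. The probes of hsa-miR-200c-3p had means of 1763 to 2587 and 28575 to 40371 in BT474 and of 1245 to 1581 and 21519 to 23630 in SKBR3. Those of hsa-miR-141-3p had 11960 to 18454 and 59140 to 64500 in BT474 and 5412 to 9181 and 31212 to 47973 in SKBR3. The brighter hsa-miR-141-3p probe reached the limit of the scanner in BT474, where 35 of its 60 spots were saturated, and not in SKBR3, where 0 of 45 were. Of the saturated spots, 15 lay on PBS replicate 2, 15 on trastuzumab replicate 2 and 5 on trastuzumab replicate 1, so that the summed signal of hsa-miR-141-3p on these arrays is a lower limit.

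**Figure D2:**
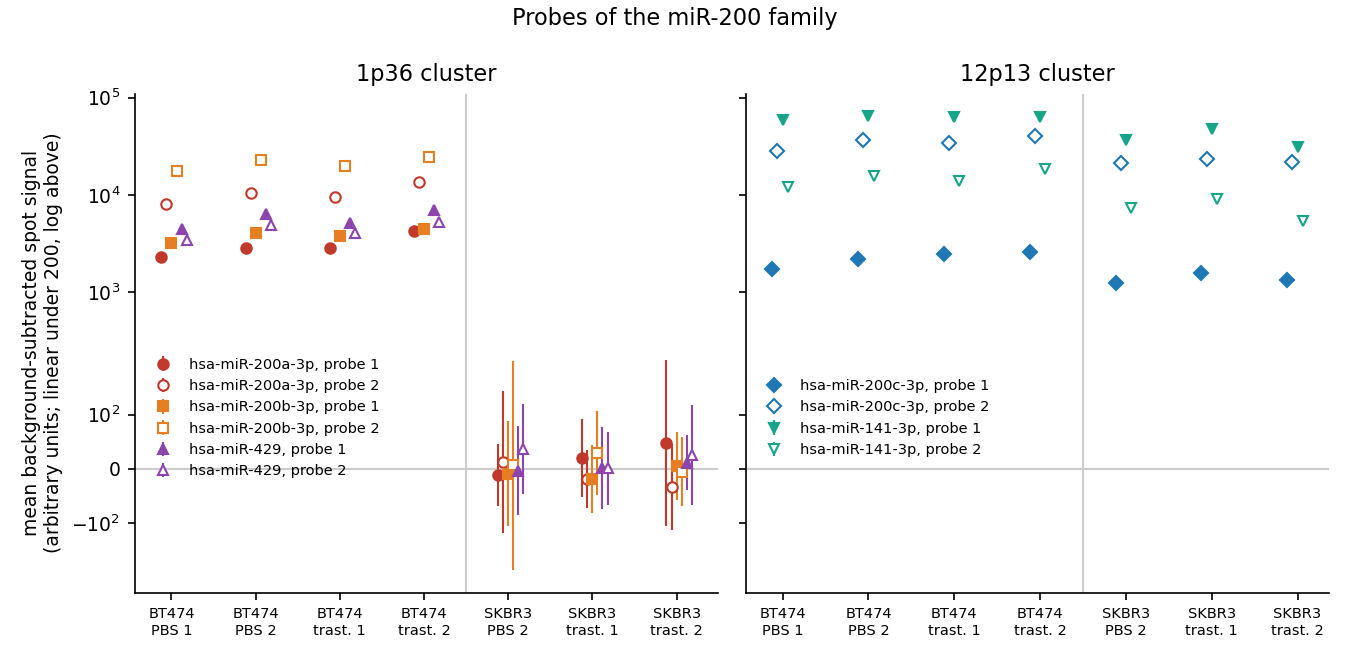
Mean background-subtracted spot signal (y axis, arbitrary units, linear near 0 and log above) of each probe of the 1p36 members (left) and the 12p13 members (right) on the 7 distinct arrays (x axis), filled and open symbols for the 2 probes, bars for the SD over 15 spots. The 1p36 probes read 2303 to 24353 in BT474 and −33.0 to 47.3 in SKBR3, and the 12p13 probes read 1245 or more on every array.

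For the difference between the lines, the mean of the SKBR3 groups was set against the mean of the BT474 groups in limma after quantile normalization, with values under 10 set to 10, for 305 miRNAs with any value above this floor. A miRNA was called at a Benjamini-Hochberg adjusted p under 0.05. In this comparison 4 of 5 members were called, against 68.5% of the miRNAs tested (209 of 305). At an unadjusted p under 0.05 it was again 4 of 5 (73.1% of all). The study's thresholds, an unadjusted p under 0.05 and a fold above 2, were applied here and below to the p of limma, and 3 of 5 passed (46.2% of all). The 3 called lower in SKBR3 were the 1p36 members (33.4% of all tested were called lower), and the 1 called higher was hsa-miR-200c-3p (35.1% were called higher). The scaling set that split, since the share of calls that were higher was 51.2% with quantile normalization. It was 42.9% with arrays scaled to the 75th percentile of detected miRNAs (those found on every array), 17.9% with the 75th percentile of all spots and 11.3% unscaled.

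The 1p36 members were lower in SKBR3 under each of these scalings. As they were not detected in SKBR3, their difference is a bound, the BT474 mean against the lowest signal detected on each SKBR3 array (log2 of 5.93 on average). hsa-miR-200b-3p was at least 68.6-fold lower in SKBR3, hsa-miR-200a-3p at least 36.6-fold and hsa-miR-429 at least 26.9-fold. Over 12 scalings, floors and left-out arrays these bounds ran from 62.0 to 229, from 33.0 to 122 and from 24.4 to 92.8, the highest of each being unscaled. The adjusted p of limma was 1.02e-06 for hsa-miR-200b-3p and hsa-miR-429 and 2.49e-06 for hsa-miR-200a-3p, lower in 3 of 3 SKBR3 arrays. All SKBR3 values of these members are the floor, with an SD of 0, so that this p holds no spread of SKBR3 and the split is read from detection, on 4 of 4 BT474 and 0 of 3 SKBR3 arrays. It also rests on the copied array being left out of SKBR3: with that array kept under its label the adjusted p was 0.0688 for each, and over 20 alternatives it ran up to that value from 4.41e-23 for hsa-miR-200a-3p, 6.45e-24 for hsa-miR-200b-3p and 1.68e-22 for hsa-miR-429. In bulk RNA, fewer cells with the miRNA and less of it per cell cannot be told apart.

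Loss of signal between the lines was not general. Of 221 miRNAs detected on all 4 BT474 arrays, 38 (17.2%) were detected on no SKBR3 array, and all 3 of the 1p36 members were among them. Of 188 detected on all 3 SKBR3 arrays, 6 (3.19%) were detected on no BT474 array, none of them a member.

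The 12p13 members were detected in both lines, with a direction that depends on the scaling. hsa-miR-200c-3p was higher in SKBR3 by 0.59 on the log2 scale after quantile normalization (95% interval 0.47 to 0.70, adjusted p 0.000695) and higher by 0.27 with the 75th percentile of detected miRNAs. It was lower with the 75th percentile of all spots (−0.43, adjusted p 0.0034) and unscaled (−0.64, adjusted p 0.0194), and over 20 alternatives the adjusted p ran from 3.45e-05 to 0.303. The deposited values gave −0.39, but in them the copied scan reads lower under its SKBR3 label than under its BT474 label by a median of −0.87 for the probes of hsa-miR-200c-3p, so that this value is not read as a direction. Its call was also lost with the copied array kept (0.43) and with a term for the replicate number (0.57).

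The scalings move all miRNAs together. The median difference over all miRNAs tested was 0 with quantile normalization, −0.27 and −0.69 with the 75th percentile of detected miRNAs and of all spots, and −0.86 unscaled. Relative to that median hsa-miR-200c-3p was higher in SKBR3 under all 4, by 0.59, 0.54, 0.26 and 0.22. Its place was near the middle, as 62.6%, 61.6%, 60.9% and 57.0% of the miRNAs tested had a lower difference. For hsa-miR-141-3p the summed signal is a lower limit on the saturated BT474 arrays, and no place relative to the median is read from it.

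hsa-miR-141-3p was not called after quantile normalization, at −0.03 (interval −0.26 to 0.19, adjusted p 0.720). The saturated BT474 spots make such differences limits, which their intervals do not bound, and a true BT474 signal above them would move each toward lower in SKBR3. As limits, the summed signal gave −0.58 (adjusted p 0.0459) with the 75th percentile of all spots, −0.79 (adjusted p 0.0276) unscaled and 0.12 with that of detected miRNAs, and the adjusted p ran from 0.0276 to 0.993 over 24 alternatives. The probe without saturated spots alone, alternatives chosen after the data were seen, gave 0.01 with quantile normalization, −0.13 with the 75th percentile of detected miRNAs, −0.83 with that of all spots and −1.04 unscaled, none of them called. Relative to the median of all, the last 3 were 0.14, −0.14 and −0.18. With quantile normalization the direction of the summed signal also turned without SKBR3 trastuzumab replicate 2 (0.03) and without BT474 PBS replicate 2 (0.0013). Quantile normalization gave hsa-miR-141-3p the same log2 value, 13.76, on 5 of 7 arrays, since that value goes to a rank and not to a signal.

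**Figure D3:**
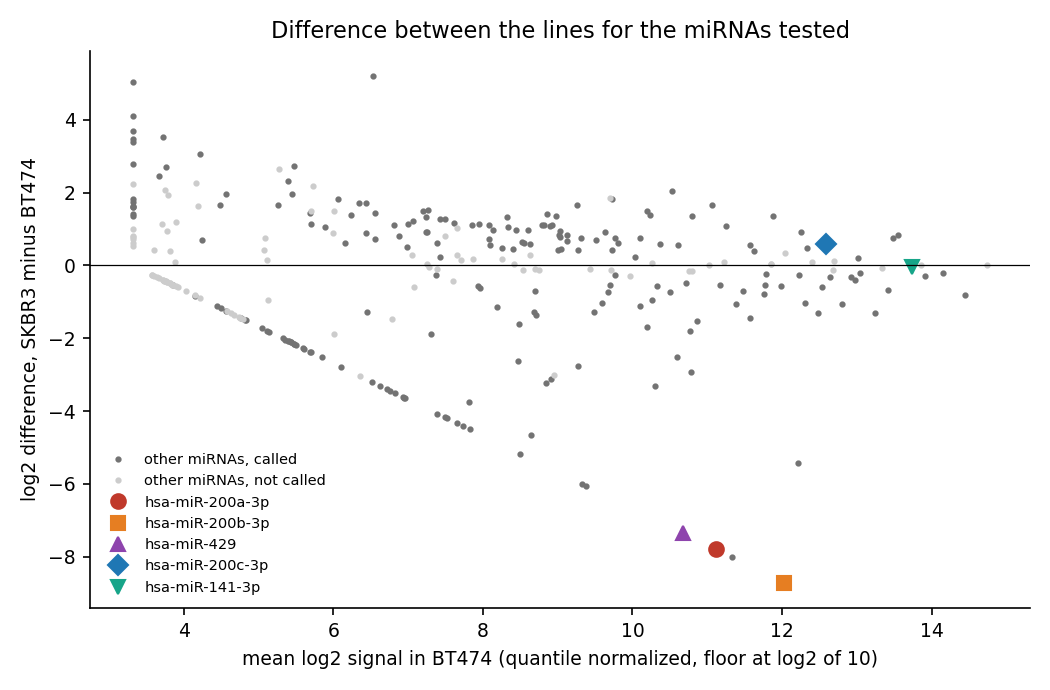
Log2 difference between the lines (y axis, SKBR3 minus BT474) against the mean log2 signal in BT474 (x axis, quantile normalized) for the 305 miRNAs tested, called in dark grey, not called in light grey and members in colour. The 1p36 members lie at −7.35 to −8.70, sizes set by the floor, and hsa-miR-200c-3p at 0.59 and hsa-miR-141-3p at −0.03, of which hsa-miR-200c-3p turns to −0.64 and hsa-miR-141-3p moves to −0.79 unscaled and turns to 0.12 with the 75th percentile of detected miRNAs, values that are limits since its BT474 signal was saturated.

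**Figure D4:**
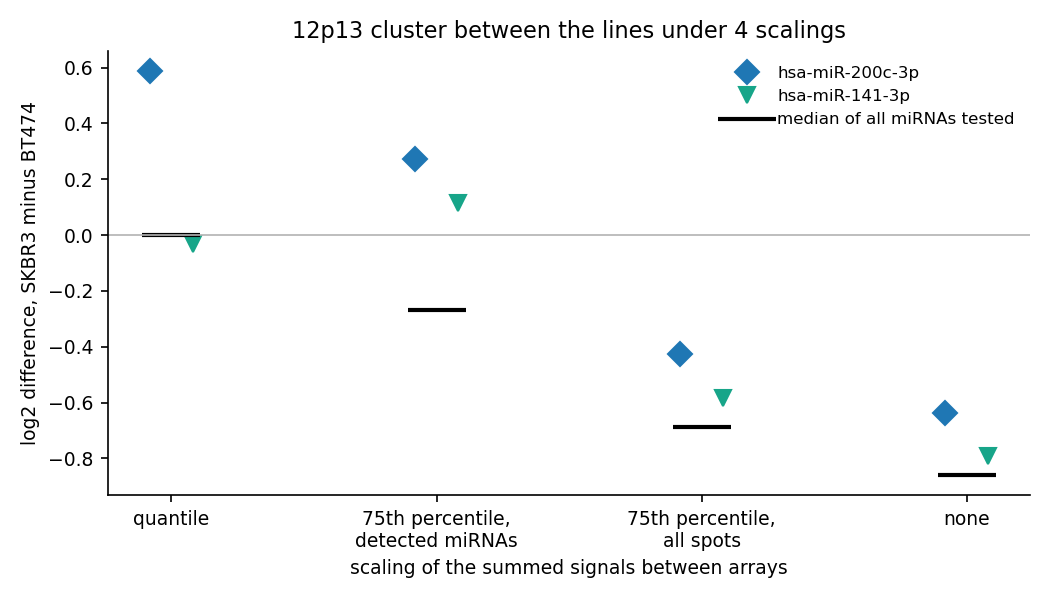
Log2 difference between the lines (y axis, SKBR3 minus BT474) of hsa-miR-200c-3p and hsa-miR-141-3p under 4 scalings (x axis), with black bars for the median of all miRNAs tested. hsa-miR-200c-3p goes from 0.59 to −0.64 and the median from 0 to −0.86, and hsa-miR-200c-3p lies above the median under all 4, while the points of hsa-miR-141-3p are limits since its BT474 signal was saturated.

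To set the clusters side by side without comparing probes, each member was taken relative to its own BT474 mean. On the 4 BT474 arrays the mean of the 1p36 members was 0.02, 0.06, −0.06 and −0.02 and that of the 12p13 members −0.04, 0.03, 0.03 and −0.02, in the order PBS 1, PBS 2, trastuzumab 1 and trastuzumab 2. On the SKBR3 arrays the 1p36 mean was −7.95 on all 3, the size being set by the floor. The 12p13 mean was 0.33 on the PBS array and 0.28 and 0.17 on the trastuzumab arrays. The gap between the clusters was −8.28, −8.23 and −8.12 on the 3 SKBR3 arrays, and between −0.09 and 0.06 on the BT474 arrays. The 12p13 values include the saturated BT474 signal of hsa-miR-141-3p. Within an array this gap shows that the clusters changed unequally, and it is no test.

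The deposited log2 values, given per probe, show the split as well. The 6 probes of the 1p36 members had 11.41 to 14.41 on the BT474 arrays and 4.32 to 6.34 on the distinct SKBR3 arrays. On the copied array under its SKBR3 label they had 10.52 to 13.49, lower than the same scan under its BT474 label by −0.84 to −0.93. The 4 probes of the 12p13 members had 11.02 to 15.97 in BT474 and 10.49 to 15.52 in SKBR3. On the copied scan these 4 probes too read lower under the SKBR3 label, by −0.45 to −0.89. No direction between the lines is thus read from the 12p13 ranges. The authors' SKBR3 PBS group thus holds 1 array with a clear signal of the 1p36 cluster and 1 array without it. The study lists hsa-miR-200a-3p among the miRNAs that fell most with trastuzumab in SKBR3. Its probes had 10.52 and 12.50 on the copied array and 4.32 and 5.55 on the other SKBR3 PBS array. On the SKBR3 trastuzumab arrays they had 4.48 to 6.34. On the distinct SKBR3 arrays hsa-miR-200a-3p was detected in neither group.

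Trastuzumab against PBS in BT474 asked whether the family moved with treatment in the line that expresses both clusters. limma called 0 of 5 members, against 24.3% of the miRNAs tested (74 of 305), and 13.8% were called higher and 10.5% lower. At an unadjusted p under 0.05 it was 0 of 5 by limma (36.7% of all) and 0 of 5 by the methods' t-test, and 0 of 5 passed the study's thresholds (12.8% of all). hsa-miR-429 changed by −0.12 on the log2 scale with quantile normalization (95% interval −0.27 to 0.04, adjusted p 0.234, or 0.0940 to 1 over 20 alternatives), and turned positive with the 75th percentile of all spots. hsa-miR-200a-3p changed by −0.10 (−0.33 to 0.13) and hsa-miR-200b-3p by −0.03 (−0.18 to 0.12), both positive with that scaling. In the 12p13 cluster hsa-miR-200c-3p changed by −0.03 (−0.18 to 0.12), positive with that scaling, and hsa-miR-141-3p by 0.05 (−0.23 to 0.34), negative with the 75th percentile of detected miRNAs. The last interval bounds nothing, since spots of hsa-miR-141-3p were saturated in both groups. The intervals of the other 4 hold for quantile-normalized values alone and do not bound the changes. With the 75th percentile of all spots hsa-miR-200a-3p, for example, stood at 0.40, beyond its interval. The PBS and trastuzumab arrays overlapped for all 5 as unscaled signals. Within each slide column, however, the unscaled trastuzumab array lay above the PBS array for all 5, and this direction turns with the scaling. It was shared by miRNAs outside the family, as the median change of all tested was 0.18 unscaled. The 75th percentile of detected miRNAs was 2169 with PBS and 2922 with trastuzumab in column 2, and 2683 and 3724 in column 1.

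These directions turn with the scaling: with the 75th percentile of all spots and unscaled, where the median of all moved to 0.23 and 0.18, all 5 were positive, so that hsa-miR-200a-3p turned to 0.40 and 0.35, hsa-miR-200b-3p to 0.20 and 0.15, hsa-miR-429 to 0.23 and 0.18 and hsa-miR-200c-3p to 0.26 and 0.21. With the 75th percentile of detected miRNAs, where the median was −0.19, all 5 were negative, hsa-miR-141-3p at −0.38. For hsa-miR-141-3p the probe without saturated spots gave 0.05 with quantile normalization, −0.22 with the 75th percentile of detected miRNAs, 0.28 with that of all spots and 0.23 unscaled, where the saturated sum gave 0.13 and 0.08 in the last 2. hsa-miR-200b-3p was called with the 75th percentile of detected miRNAs only, at −0.31 (adjusted p 0.0322), or −0.11 relative to the median, while its adjusted p over 20 alternatives ran from 0.0322 to 1. hsa-miR-200a-3p was called at −0.21 (adjusted p 0.0266, range over 20 alternatives 0.0266 to 1) without BT474 trastuzumab replicate 2, and was 0 without BT474 trastuzumab replicate 1. Without BT474 trastuzumab replicate 2 hsa-miR-200b-3p and hsa-miR-200c-3p turned to 0.02 and 0.01, and hsa-miR-200b-3p also turned (to 0.0014) without BT474 PBS replicate 2. The 74 calls became 49 and 44 without SKBR3 trastuzumab replicate 1 and 2, and 56.8% of them were higher, against 29.3%, 77.5% and 60% under the other scalings.

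Trastuzumab against PBS in SKBR3 could be read for the 12p13 cluster alone, as the 1p36 members were not detected in either group. limma called 0 of these 2, against 11.8% of the miRNAs tested (36 of 305), with 6.23% called higher and 5.57% lower. At an unadjusted p under 0.05 it was 0 of 2 (22.6% of all), 0 of 2 passed the study's thresholds (9.18% of all), and the methods' t-test gave 0 of 1. The single PBS array was assumed to vary like the other groups. hsa-miR-200c-3p changed by −0.09 (95% interval −0.27 to 0.09, adjusted p 0.538) and hsa-miR-141-3p by −0.12 (−0.47 to 0.23, adjusted p 0.764), directions that held in 2 of 4 scalings. Over the alternatives these adjusted p ran from 0.127 to 1 and from 0.207 to 1. Both turned positive with the 75th percentile of all spots (0.11 and 0.06, median of all 0.23) and unscaled (0.11 and 0.06, median 0.23), and both stayed below the median under all 4 scalings. The hsa-miR-141-3p probe without saturated spots gave −0.34 with quantile normalization, −0.24 with the 75th percentile of detected miRNAs, −0.067 with that of all spots and −0.063 unscaled, none of them called. Without SKBR3 trastuzumab replicate 2, the dimmest array for hsa-miR-141-3p, its change was 0. The 36 calls became 16 and 21 without BT474 PBS replicate 1 and 2 and 20 without SKBR3 trastuzumab replicate 1, and 52.8% were higher, against 78.8%, 83.7% and 65% under the other scalings.

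The response of the 12p13 members was not called different between the lines. The difference, SKBR3 minus BT474, was −0.06 (interval −0.29 to 0.17, adjusted p 0.660) for hsa-miR-200c-3p and −0.17 (−0.62 to 0.28, adjusted p 0.568) for hsa-miR-141-3p, and both turned positive with the 75th percentile of detected miRNAs (0.18 and 0.26, median of all 0.39). The value of hsa-miR-141-3p rests on saturated BT474 spots, and its unsaturated probe gave −0.39 with quantile normalization, −0.019 with the 75th percentile of detected miRNAs, −0.35 with that of all spots and −0.29 unscaled, none of them called. Over the alternatives the adjusted p ran from 0.142 to 0.929 and from 0.183 to 0.998. limma called 0 of 2, against 16.1% of the miRNAs tested (49 of 305), with 6.23% called higher and 9.84% lower. At an unadjusted p under 0.05 it was 0 of 2 (30.2% of all), and 0 of 2 passed the study's thresholds (13.1% of all). The 49 calls became 74 without BT474 trastuzumab replicate 2 and 29 without SKBR3 trastuzumab replicate 1. Of the 49 calls, 38.8% were higher, against 68.6%, 47.5% and 56% under the other scalings. The line and treatment comparisons share arrays and are not independent.

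**Figure D5:**
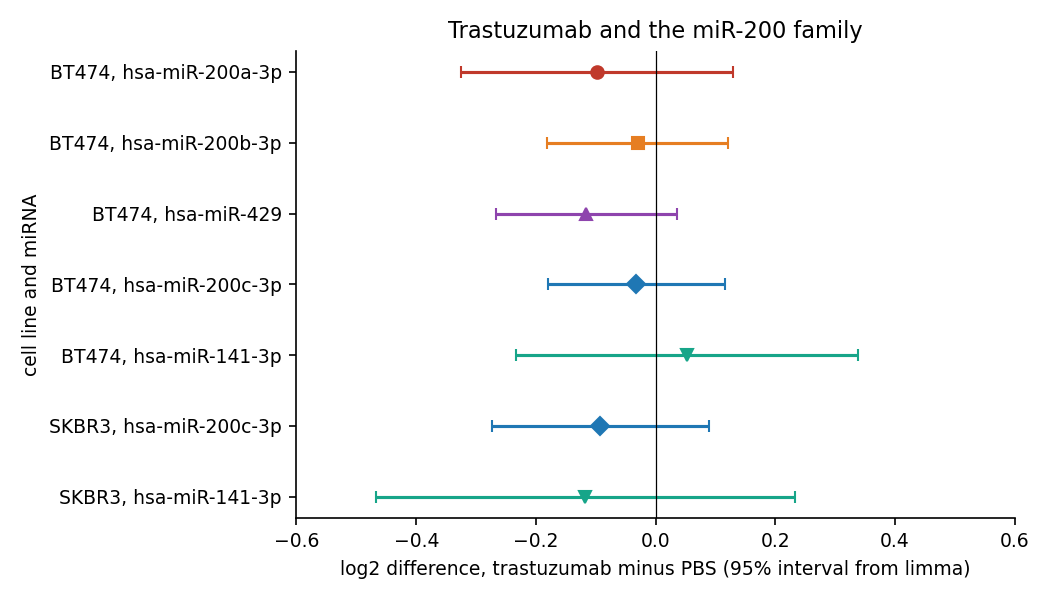
Log2 change with trastuzumab (x axis, trastuzumab minus PBS, quantile normalized) of the members with a value in each line (y axis), with bars for the 95% interval from limma. The point of hsa-miR-141-3p in BT474 (0.05) comes from saturated spots and its bar bounds nothing. The other values lie between −0.12 and −0.03 with intervals that include 0, and the directions turn with the scaling, for example to 0.40 for hsa-miR-200a-3p in BT474 and to 0.11 for hsa-miR-200c-3p in SKBR3 with the 75th percentile of all spots.

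The 5p arms come from the other strand of the same hairpins and are usually the less abundant strand. Of 4 on the array, hsa-miR-200a-5p and hsa-miR-200c-5p were detected on no array. hsa-miR-200b-5p had summed signals of 24.4, 32.3, 25.2 and 26.3 on the BT474 arrays and was not detected in SKBR3, as its 3p arm. hsa-miR-141-5p was detected on BT474 PBS replicate 1 (28.9) and trastuzumab replicate 1 (22.6) and nowhere else. limma called 0 of the 2 arms with a value in the line comparison, and hsa-miR-200b-5p was at −0.58 (adjusted p 0.312) near the floor. It was called lower in SKBR3 unscaled, with both 75th percentiles and with a term for the replicate number (−1.11). No fold is given, since the signals lie too near the floor.

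Distances between profiles over the 7 arrays are not given for the 1p36 mean, which lies at the floor in SKBR3, so that a distance follows the level in BT474. Among the miRNAs detected, like the 1p36 members, on all 4 BT474 arrays and on no SKBR3 array were hsa-miR-203a, hsa-miR-375 and hsa-miR-454-3p. hsa-miR-203a, which acts in epithelial differentiation, had 2252 to 4207 in BT474. The 12p13 mean holds the saturated hsa-miR-141-3p, so its nearest are not given. Nearest to hsa-miR-200c-3p alone, a choice made after the data were seen, were hsa-miR-320b (root mean square difference 0.0775 on the log2 scale, among 298 tested), hsa-miR-378a-3p (0.0861), hsa-miR-4306 (0.0871) and hsa-miR-125a-5p (0.0883), all detected on all 7 arrays and without saturated spots. These miRNAs were picked after their values were seen, and as the distances are set mostly by the difference between the lines, many miRNAs could share them.

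Apart from the members and their 5p arms, 7 miRNAs of the array have their gene within 10 Mb of the 1p36 cluster, of which 1 was detected, hsa-miR-34a-5p, 7.98 Mb away and present on all 7 arrays. hsa-miR-34a-5p did not share the loss of the 1p36 members: it had 3361 to 4876 in BT474 and 2423 to 2869 in SKBR3. Counted in the same way, there were 4 within 10 Mb of the 12p13 cluster, of which 0 were detected.

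The family was set beside other miRNAs of the epithelial state. Of the 14 epithelial and luminal miRNAs 12 had a value, and 9 of them were called lower and 2 called higher in SKBR3, against 33.4% and 35.1% of all tested, with a median log2 difference of −3.07, or −1.50 with the 6 miRNAs of 1 line at their bound, against 0 for all tested. With quantile normalization hsa-miR-203a was at least 42.2-fold lower (38.2 to 137 over the 12 scalings, floors and left-out arrays), hsa-miR-375, a luminal miRNA, was also detected in BT474 alone, and hsa-miR-194-5p was lower by at least 3.02-fold (2.74 to 10.5). hsa-miR-192-5p, detected on 4 BT474 arrays and 1 SKBR3 array, was called lower by an amount set by the floor, hsa-miR-342-3p was lower (−2.94), and hsa-miR-31-5p was higher by a bound of 24.2-fold, which was 7.64 unscaled (7.64 to 31.5 over these 12 settings). hsa-miR-210, the other miRNA called higher (0.95), had unscaled signals that overlapped between the lines (507 to 867 in BT474 and 564 to 659 in SKBR3). Under the other scalings 10 of the 12 miRNAs were called lower, against 40.4%, 55.4% and 53.7% of all tested with the 75th percentile of detected miRNAs, with that of all spots and unscaled. The 1p36 members were lower under each of them.

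Of 12 miRNAs reported to restrain the epithelial-mesenchymal transition 7 had a value, with 4 called higher and 3 called lower in SKBR3, against 35.1% and 33.4% of all tested, and a median of 0.38, which turned to −0.43 and −0.64 with the 75th percentile of all spots and unscaled. There 1 was called higher and 4 lower (12.1% and 55.4% of all), and 0 higher and 4 lower (6.84% and 53.7%). hsa-miR-101-3p, detected on 1 SKBR3 array, was called lower by an amount set by the floor. With the replicate term it was not called and moved from −3.74 to −1.18. Others called were hsa-miR-30a-5p (1.29), hsa-miR-7-5p (−1.14), hsa-miR-148a-3p (−1.06), hsa-miR-34b-5p (0.89) and hsa-miR-335-5p (0.82), of which the last 2 turned negative under the same 2 scalings, as did hsa-miR-34a-5p (0.38). hsa-miR-30a-5p was not called higher unscaled, where its signals overlapped between the lines (143 to 415 in BT474 and 233 to 297 in SKBR3). With a term for the replicate number only hsa-miR-30a-5p of these 7 was called (1.24, adjusted p 0.0293), and 111 of 305 of all tested, while hsa-miR-7-5p, hsa-miR-148a-3p, hsa-miR-34b-5p, hsa-miR-335-5p and hsa-miR-34a-5p stood at −1.06, −1.09, 1.06, 0.73 and 0.29. Of 14 reported to promote it 7 had a value, with 1 called higher and 6 called lower, against those same shares of all tested, and a median of −0.80 over the 6 without saturated spots. With the 75th percentile of all spots 0 were called higher and 7 lower, and unscaled 0 and 6, against the shares of all given above for these scalings. The medians there were −1.54 and −1.75 over all 7, saturated hsa-miR-21-5p included, against −0.69 and −0.86 for all tested. hsa-miR-21-5p was lower, with no size given, since 119 of its 120 spots in BT474 were saturated and 0 of 90 in SKBR3. hsa-miR-10b-5p was at least 3.33-fold lower (2.97 at the lowest of the 12 settings), hsa-miR-103a-3p and hsa-miR-107 stood at −1.32 and −1.07, hsa-miR-181a-5p at −0.53, and hsa-miR-22-3p at 0.75, which turned to −0.34 and −0.55 under those 2 scalings. With the replicate term 5 of these 7 were called, hsa-miR-22-3p (0.78) and hsa-miR-27a-3p (−0.29) not, and 10 of the 12 epithelial and luminal miRNAs. In the latter list hsa-miR-192-5p lost its call, at −2.55 against −4.65, sizes set by the floor.

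With trastuzumab in BT474, where no member was called, 3 miRNAs of the epithelial and luminal list were called higher, hsa-miR-194-5p (1.17), hsa-miR-205-5p (1.11) and hsa-miR-375 (0.40). Another 2 were called lower, hsa-miR-210 (−0.69) and hsa-miR-342-3p (−0.44), of 11 with a value, against 24.3% of all tested called. hsa-miR-210 counts here as 1 of the list, and whether it marks the epithelial state was not tested. Unscaled, limma called 2 of this list higher and 0 lower. There the signals of hsa-miR-342-3p overlapped, with 1965 and 2516 with PBS and 1975 and 2358 with trastuzumab. The list's median was 0.15, against 0 for all tested, and −0.17 with the 75th percentile of detected miRNAs. hsa-miR-30a-5p rose (0.99) and hsa-miR-7-5p fell (−1.35) among 7 reported to restrain the transition, and hsa-miR-27a-3p (0.34) and hsa-miR-181a-5p (0.23) rose among 7 reported to promote it, 2 calls of 7 in each list. A term for the replicate number, which goes with slide column in BT474, left 0 miRNAs called in BT474, so that each of these calls was lost, while their log2 changes stayed the same. In SKBR3 hsa-miR-210 (−0.53, and 0.02 unscaled) and hsa-miR-148a-3p (−0.69) were called lower, 1 of 7 in each of the first 2 lists, against 11.8% of all tested, calls that were lost with the replicate term (−0.59 and −0.66, adjusted p 0.208 and 0.272), and in the third limma called 0 of 6, with 0 at an unadjusted p under 0.05. Unscaled, hsa-miR-148a-3p had SKBR3 signals of 734 with PBS and 708 and 632 with trastuzumab, a smaller fall than −0.69. With the other scalings limma called 0 of 7 in each of the first 2 lists in SKBR3, and 2 of 6 in the third with the 75th percentile of all spots. In BT474 the other scalings gave 2 to 5 calls of 11, 0 to 3 of 7 and 0 to 5 of 7. The difference between the lines in response was called for 0 of 7, 3 of 7 and 0 of 6, against 16.1% of all tested, and for none with the replicate term, where the 3 (hsa-miR-148a-3p, hsa-miR-30a-5p and hsa-miR-7-5p) stood at −0.71, −1.06 and 1.35 against −0.74, −1.10 and 1.36.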

How the data were processed

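RNA of BT474 and SKBR3 cells was measured by the authors on a one-colour human miRNA array of miRBase 19. The deposited scanner files hold intensity values in arbitrary units, background-subtracted by the feature extraction software for each spot and summed per miRNA, with no scaling between arrays. The deposited series values are log2 values per probe, quantile normalized by the authors in BRB ArrayTools. The authors tested with a two-sample t-test under a random variance model, at p under 0.05 and a fold above 2.

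Members were taken by name, from spots that are not controls. Members and lists were chosen with earlier results of these data known. The lists were the 5p arms, epithelial and luminal miRNAs, miRNAs reported to restrain or to promote the epithelial-mesenchymal transition, stromal, endothelial, erythroid and leukocyte miRNAs, and the miRNAs of the ERBB2 locus. The copied array was used once, which left 7 arrays in 4 groups, 1 of them a lone array assumed to vary like the other groups.

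Quantile normalization was applied to the summed signals of the 7 arrays, which were then set to at least 10 and taken to log2. Of 2006 miRNAs the 305 with a value above the floor were fitted in limma 3.58.1 (R 4.3.3) with 1 coefficient per group and 3 residual degrees of freedom, where the median residual SD was 0.101 over 173 miRNAs detected on every array. Contrasts were the lines, trastuzumab in each line and the difference of the latter, with Benjamini-Hochberg adjustment over the 305 and a threshold of 0.05. Where a line had no detected signal, the fold is a bound against the lowest detected signal of each array. All other steps ran in Python 3.11.15 (tables with pandas 2.3.3 and numpy 2.4.6, intervals with scipy 1.17.1, plots with matplotlib 3.10.9). The fit was tested on simulated data.

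Alternatives were 2 other scalings and none, floors of 1 and 30, other filters on dim miRNAs, the mean spot signal, normexp background correction (offset 50), the deposited values, the copied array kept, a replicate block, single lines, an ordinary two-sample t-test without the authors' random variance model, the thresholds of the study, 1 treatment alone and each array left out in turn. hsa-miR-141-3p read from its unsaturated probe, under each scaling, was added after the data were seen, as were a check of the copied array without the family, a count of saturated spots per miRNA, the lists with the replicate block, list medians without miRNAs that hold saturated spots, list bounds under the 12 settings of the 1p36 bounds and the profiles nearest to hsa-miR-200c-3p alone.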

Additional observations from a re-analysis of the deposited data

Results flagged for a closer look

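For 3 miRNAs reported to restrain the epithelial-mesenchymal transition, none of them a member of the family, the response to trastuzumab differed between the lines in limma (SKBR3 minus BT474, quantile normalized). The difference was −0.74 on the log2 scale for hsa-miR-148a-3p (adjusted p 0.0316), from 0.05 in BT474 and −0.69 in SKBR3. It was −1.10 for hsa-miR-30a-5p (adjusted p 0.00615), from 0.99 in BT474 and −0.11 in SKBR3. It was 1.36 for hsa-miR-7-5p (adjusted p 0.00987), from −1.35 in BT474 and 0.02 in SKBR3. With the other scalings the adjusted p was 0.114 to 0.592 for hsa-miR-148a-3p, 0.0511 to 0.337 for hsa-miR-30a-5p and 0.0036 to 0.0955 for hsa-miR-7-5p. With a term for the replicate number none was called (−0.71, −1.06 and 1.35, adjusted p 0.273, 0.169 and 0.169). As unscaled signals in SKBR3, hsa-miR-148a-3p had 734 with PBS and 708 and 632 with trastuzumab. There hsa-miR-30a-5p had 233 against 297 and 269, and hsa-miR-7-5p 54.0 against 88.6 and 74.0. In BT474 the first had 2503 and 3273 against 3380 and 4629. The second had 143 and 172 against 295 and 415, and the third 454 and 633 against 224 and 273. The SKBR3 sizes printed above thus depend on the scaling. SKBR3 has a lone PBS array, and treatment and slide row cannot be told apart.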

How the results depend on the processing

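With quantile normalization, limma called 209 miRNAs between the lines, 74 with trastuzumab in BT474, 36 in SKBR3 and 49 for the difference in response. In this order the counts were 134, 8, 7 and 8 with no filter on dim miRNAs, and 6, 6, 6 and 5 with the copied array kept. With the mean spot signal they were 315, 0 (166 at an unadjusted p under 0.05), 90 and 80. With the replicate block (replicate number as a term) they were 111, 0 (83 unadjusted), 10 and 11. Normexp background gave 385 between the lines, 116 in BT474 and 55 in SKBR3. Unscaled signals gave 25, 20 and 25 for the last 3 comparisons, and the deposited values 0, 0 and 0 (194, 167 and 175 unadjusted). Each line's own arrays gave 41 in BT474 and 15 in SKBR3. An ordinary t-test, without the authors' random variance model, gave 3 and 0 after adjustment (76 and 22 unadjusted). At the thresholds of the study, applied to the p of limma, 39 passed in BT474. With 1 array left out the counts ranged from 187 to 206, from 44 to 80, from 16 to 42 and from 29 to 74.

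Between the lines, the copied array kept gave hsa-miR-200a-3p −5.83, hsa-miR-200b-3p −6.54, hsa-miR-429 −5.52 and hsa-miR-200c-3p 0.43, none of them called. hsa-miR-200c-3p lost its call with the replicate block (0.57) and turned with the 75th percentile of all spots (−0.43) and unscaled (−0.64). The deposited values gave −0.39, not read as a turn, since the copied scan itself reads lower under its SKBR3 label by a median of −0.87 there. hsa-miR-141-3p, a limit since its BT474 signal was saturated, gained a call with the 75th percentile of all spots (−0.58) and unscaled (−0.79), which the probe without saturated spots did not give (−0.83 and −1.04, not called). It turned with the 75th percentile of detected miRNAs (0.12), with the replicate block (0.17), on the PBS arrays alone (0.053) and on the probe without saturated spots (0.010), whose values were all chosen after the data were seen. With 1 array left out it ranged from −0.089 to 0.029.

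With trastuzumab in BT474, the 75th percentile of all spots and unscaled signals turned hsa-miR-200a-3p (0.40 and 0.35), hsa-miR-200b-3p (0.20 and 0.15), hsa-miR-429 (0.23 and 0.18) and hsa-miR-200c-3p (0.26 and 0.21). Normexp and the deposited values turned hsa-miR-200a-3p (0.082 and 0.019) and hsa-miR-200c-3p (0.079 and 0.036), and the mean spot signal hsa-miR-200c-3p (0.018). For hsa-miR-141-3p these changes rest on saturated spots. The 75th percentile of detected miRNAs gave hsa-miR-200b-3p a call (−0.31) and turned hsa-miR-141-3p (−0.38, or −0.22 on the probe without saturated spots). With 1 array left out hsa-miR-200a-3p ranged from −0.21, where it was called, to 0, hsa-miR-200b-3p from −0.078 to 0.021, hsa-miR-200c-3p from −0.059 to 0.014 and hsa-miR-141-3p from 0 to 0.12.

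In SKBR3, the 75th percentile of all spots and unscaled signals turned hsa-miR-200c-3p (0.11 and 0.11) and hsa-miR-141-3p (0.056 and 0.059), and the copied array hsa-miR-200c-3p (0.22). hsa-miR-141-3p ranged from −0.22 to 0 with 1 array left out. The difference in response turned with the 75th percentile of detected miRNAs for hsa-miR-200c-3p (0.18) and hsa-miR-141-3p (0.26) and with the copied array for hsa-miR-200c-3p (0.26).

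The gap between the clusters, −8.21 on average in SKBR3, was −8.11 and −7.73 with the 75th percentile of detected miRNAs and of all spots, −7.61 unscaled, −11.53 and −6.63 with floors of 1 and 30, −12.34 with the mean spot signal, −4.68 with normexp, −6.79 in the deposited values and −6.15 with the copied array. It ranged from −8.35 to −8.04 with 1 array left out. Its size follows the floor and its sign held throughout.

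The lone SKBR3 PBS array could not be left out, and the t-test gave no value for SKBR3 miRNAs without spread. In BT474 the deviations of equal replicate numbers had a correlation of 0.209 over 221 miRNAs (2 pairs), beside the unpaired fit that was used. The cause of these shifts was not tested. Direction and call were unchanged in the remaining alternatives, in 19 of 20 for each 1p36 member between the lines.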

Other observations

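The miRNAs of the ERBB2 locus, the gene of HER2, were found by arm and line. hsa-miR-4728-3p was detected on the 2 BT474 PBS arrays alone (166 and 67.7), and hsa-miR-4728-5p on the 3 SKBR3 arrays alone (44.7, 97.9 and 52.0). With trastuzumab in BT474 hsa-miR-4728-3p stood at −2.86 with quantile normalization and was not called. It was called lower with the 75th percentile of detected miRNAs (−3.25), with that of all spots (−3.29) and unscaled (−3.40), sizes set by the floor. Against the lowest signals detected in BT474, hsa-miR-4728-5p was higher in SKBR3 by a bound of 8.15-fold with quantile normalization and 2.30-fold unscaled (2.30 to 10.6 over 12 scalings, floors and left-out arrays).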
